A study of Drosophila melanogaster with 6 samples.

Results

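The proteasome genes of Drosophila melanogaster were compared between female larvae with and without roX RNA. Members were the genes whose probeset carries a single symbol in the platform annotation that begins with Prosalpha, Prosbeta, or Rpn or Rpt and a digit. This gave 40 genes of the 11982 genes with such a probeset, each read by 1 probeset. Of these, 26 are the ubiquitous subunits and 14 are copies with T or R after the number in the name. The genes Prosbeta1, Rpn9, Rpn10, Rpt1, Rpt6 and Rpt6R, and the probeset shared by Prosalpha1 and Prosalpha1R, were not analysed here.

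RNA came from whole female third-instar larvae, on 3 arrays for each of 2 genotypes and 50 larvae per RNA preparation. The mutants had the genotype roX1SMC17ADf(1)52; [w+4D4.3], which lacks roX1 and roX2. The controls carried the same alleles and the same w+ transgene and, in addition, [hsp83-roX1+], which expresses roX1 from the broadly active hsp83 promoter. They are therefore roX mutants with a transgene and not wild-type flies, although the labels call them the wild-type control. Values are log2 expression values computed by robust multi-array average (RMA), and a difference of 1 is a doubling. In RNA from whole larvae, fewer cells that use a gene and less RNA of that gene per cell cannot be told apart.

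The 26S proteasome is the protease that degrades ubiquitin-tagged proteins in every cell. Its 20S core is a barrel of alpha and beta rings with the active sites inside. The 19S regulatory particle caps the core: its lid removes ubiquitin, and its base binds, unfolds and feeds in the substrate through a ring of Rpt ATPases. Flies hold further genes for several subunits, many of which are expressed in the male germline, where a testis form of the core serves sperm formation. The roX RNAs guide the dosage compensation complex to the X chromosome of males, and 5 members are X-linked: Prosalpha4, Rpt3 and Rpt4 among the ubiquitous subunits, and Prosbeta2R1 and Rpn13R among the copies.

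Larval fat body genes were bright and genes of the Y chromosome dim on all arrays. The fat body genes Lsp2, Fbp1, Fbp2 and Desat1 had means over 6 arrays from 11.5 to 14.2. The 9 probesets of 7 Y-linked genes, which females lack, had single values from 2.45 to 4.53. Probesets were tested only if they were outside the lowest 40% by mean, which left 11262 with a mean of at least 4.51. Control replicate 1 was the highest array for 19 of the 26 ubiquitous subunits, against 30.0% of all tested probesets. The medians of the subunits and the values of Rpn1, Rpn2, Rpn8, Rpn13 and Rpt3 are therefore also given without it. Levels of roX1 and roX2 were not analysed here, so they do not check the genotypes.

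No proteasome gene passed the test between the mutant and control larvae. Among all tested probesets, 62 of 11262, or 0.551%, passed limma's adjusted p of 0.05. The 28 tested members comprised all 26 ubiquitous subunits and 2 of the 14 copies, Rpt3R and Prosalpha4T2, and 0 of them passed (smallest limma adjusted p = 0.276, for Rpt3R). At an unadjusted p under 0.05 there was 1 member, Rpt3R, which is 1 of 28 against 9.0% of all tested probesets. The 3 mutant values lay all on one side of the 3 control values for 0 of 26 ubiquitous subunits, against 16.3% of tested probesets.

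Differences of the ubiquitous subunits were small and lay on both sides of 0. They ran from -0.18 for Rpn8 to 0.10 for Prosbeta4, with 14 above and 12 below 0, where 47.6% of all tested probesets lay above. Their median was 0.011, against -0.0086 over all tested probesets. The 95% intervals from limma reached from -0.48 at the lowest, for Rpn2, to 0.34 at the highest, for Prosalpha6. All 26 intervals lay within -0.5 and 0.5, as did 78.6% of all tested intervals. The median absolute difference was 0.042, against 0.087 over the 911 tested probesets of the same brightness. The median standard error was 0.098 in the subunits and 0.102 in those probesets.

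**Figure D1:**
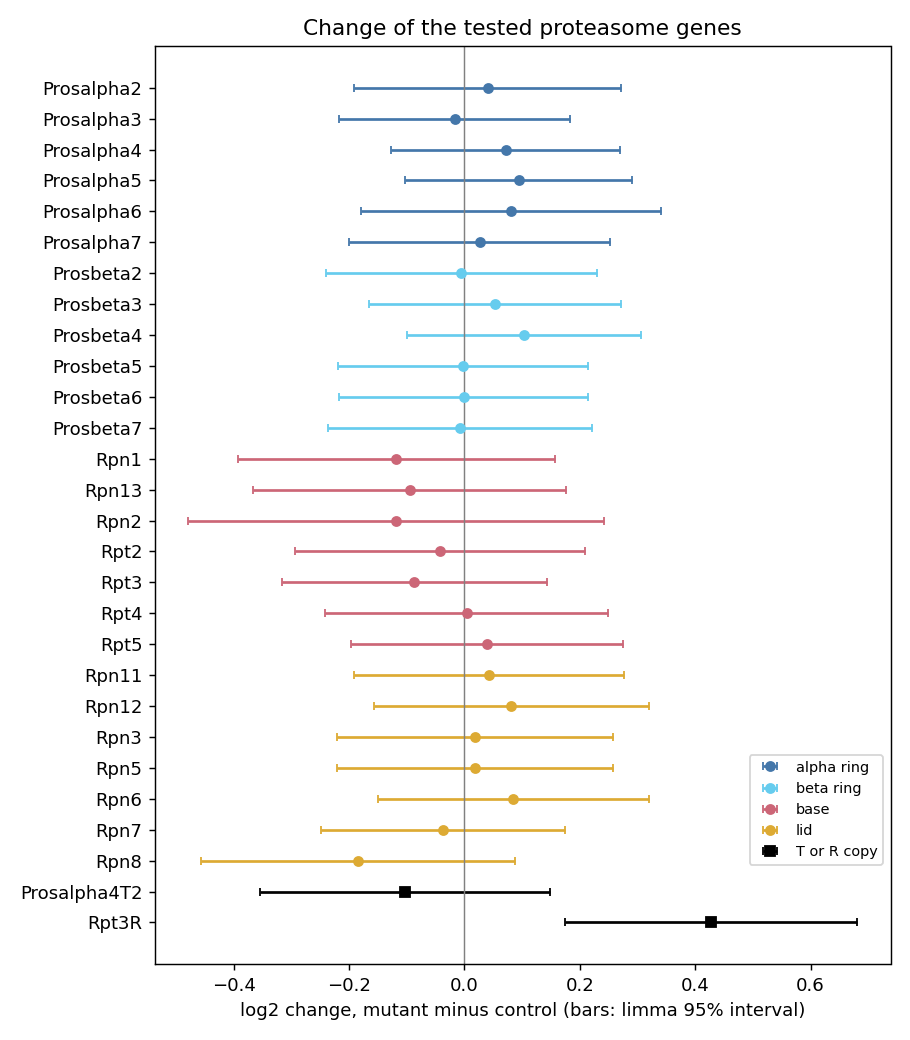
Log2 change, mutant minus control, of the 28 tested proteasome genes, with limma's 95% interval as bars and colours for the part of the particle. Rpt3R, at 0.43, lies apart from the 26 ubiquitous subunits, which run from -0.18 to 0.10.

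The alpha ring closes the ends of the core and gates the entry of substrates. Of its 6 measured ubiquitous subunits, 5 had a difference above 0, and the median was 0.056. Prosalpha5 had 12.33, 12.26 and 12.19 in mutants, against 12.27, 12.10 and 12.13 in controls (difference 0.09, limma adjusted p = 0.758). The groups overlapped, with mutant replicate 1 highest and control replicate 2 lowest. Prosalpha4, which is X-linked, had 10.98, 10.97 and 10.83 in mutants, against 10.95, 10.78 and 10.84 in controls (difference 0.07, limma adjusted p = 0.823). Mutant replicate 3 lay with the controls. Prosalpha6 had 11.98, 11.95 and 11.78 in mutants, against 12.02, 11.73 and 11.73 in controls (difference 0.08, limma adjusted p = 0.851), and here control replicate 1 was the highest of the 6.

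The beta ring carries the active sites, with Prosbeta2 for cleavage after basic residues and Prosbeta5 for cleavage after hydrophobic ones. Its 6 ubiquitous members had a median difference of -0.0021, and 2 of them lay above 0. Prosbeta5 had 12.48, 12.46 and 12.26 in mutants, against 12.49, 12.37 and 12.34 in controls (difference -0.0028, 95% interval from -0.22 to 0.21). Prosbeta2 had 12.42, 12.40 and 12.18 in mutants, against 12.46, 12.31 and 12.24 in controls (difference -0.0053). For both genes mutant replicate 3 was the lowest array and control replicate 1 the highest. Prosbeta4 had 12.25, 12.24 and 12.08 in mutants, against 12.19, 12.03 and 12.05 in controls (difference 0.10, limma adjusted p = 0.745). Prosbeta3 had a difference of 0.053, Prosbeta6 one of -0.0014 and Prosbeta7 one of -0.0076.

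The base holds the Rpt ATPases, the large scaffold subunits Rpn1 and Rpn2 and the ubiquitin receptor Rpn13. Its 7 measured ubiquitous members had a median difference of -0.087, and 5 lay below 0. Rpn2 had 11.39, 11.34 and 11.35 in mutants, against 11.83, 11.33 and 11.27 in controls (difference -0.12, limma adjusted p = 0.841). Rpn1 had 10.50, 10.42 and 10.46 in mutants, against 10.82, 10.44 and 10.48 in controls (difference -0.12, limma adjusted p = 0.784). In both scaffold genes control replicate 1 stood alone at the top, and the other 5 arrays lay close together. Rpn13 had 11.58, 11.57 and 11.63 in mutants, against 11.93, 11.53 and 11.61 in controls, with the same array at the top (difference -0.095, limma adjusted p = 0.829). Without control replicate 1 the differences were 0.059 for Rpn2, 0.0044 for Rpn1 and 0.025 for Rpn13.

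The Rpt ATPases were also highest on control replicate 1. Rpt3, the X-linked namesake of Rpt3R, had 11.51, 11.38 and 11.50 in mutants, against 11.72, 11.47 and 11.46 in controls (difference -0.087, limma adjusted p = 0.814, and -0.0021 without control replicate 1). Rpt4, also X-linked, had 11.69, 11.62 and 11.54 in mutants, against 11.80, 11.55 and 11.49 in controls (difference 0.0040, limma adjusted p = 0.991). Differences were -0.042 for Rpt2 and 0.040 for Rpt5. Of the 3 X-linked ubiquitous subunits the median difference was 0.0040, and that of the 23 autosomal ones was 0.019. Without control replicate 1 these medians were 0.099 and 0.083, so their order depended on that array.

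The lid carries Rpn11, the deubiquitinase, and its partner Rpn8. Its 7 ubiquitous members had a median difference of 0.019. Rpn11 had 12.07, 12.01 and 11.89 in mutants, against 12.11, 11.89 and 11.84 in controls (difference 0.043, limma adjusted p = 0.918). Rpn8 had 10.85, 10.95 and 10.87 in mutants, against 11.31, 10.92 and 10.99 in controls, and mutant replicate 2 lay above control replicate 2. Its difference, -0.18, was the largest of the ubiquitous subunits in size and did not pass (95% interval from -0.46 to 0.088, limma adjusted p = 0.683). Without control replicate 1 it was -0.066, and the largest in size was then Prosalpha6, at 0.18. Differences were 0.085 for Rpn6, 0.081 for Rpn12, 0.019 for Rpn3, 0.019 for Rpn5 and -0.037 for Rpn7.

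The ubiquitous core subunits moved together from array to array, and this movement cut across the genotypes. All 12 core subunits lay above their own 6-array mean on mutant replicates 1 and 2 and on control replicate 1, and all 12 lay below it on mutant replicate 3 and control replicates 2 and 3. Their median deviation from that mean was 0.085, 0.067 and -0.11 on the 3 mutant arrays, and 0.10, -0.080 and -0.071 on the 3 control arrays. Averaged by group this was 0.016 ± 0.11 in mutants and -0.016 ± 0.10 in controls (SD, n = 3 each), so the spread within each group was several times the difference between them. Of the 14 ubiquitous regulatory subunits, 10, 7 and 0 lay above their own mean on the 3 mutant arrays, and 14, 1 and 1 on the 3 control arrays. Over all tested probesets, 54.7%, 53.1% and 37.7% lay above their own mean on the 3 mutant arrays, and 54.0%, 48.4% and 49.7% on the 3 control arrays. The labels give no batch or date for the arrays.

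On control replicate 1 the base stood higher than the other parts of the particle by its median. All 7 base members were highest on that array, as were 5 of 7 lid members and 7 of 12 core subunits, against 30.0% of all tested probesets and 24.4% of those as bright as the subunits. The median deviation of the base there was 0.23, and on the other arrays it was 0.0010, -0.079 and -0.045 in mutants, and -0.084 and -0.065 in controls. Of the base, Rpt4 and Rpt5 had the signs of the core on all 6 arrays, whereas Rpn1, Rpn2 and Rpn13 lay below their own means on all arrays but control replicate 1. Rpn2 was highest there by the widest margin, with a deviation of 0.41, followed by Rpn8 of the lid (0.33), Rpn1 (0.30) and Rpn13 (0.29). The 7 lid members had medians of 0.10, 0.041 and -0.11 on the mutant arrays, and 0.14, -0.046 and -0.13 on the control arrays, so the medians had the signs of the core on every array. Single lid members departed from these signs. Rpn8 lay below its own mean on all 3 mutant arrays and at 0.0084 above it on control replicate 3. Rpn3 was at -0.032 on mutant replicate 2 and Rpn6 at 0.0018 on control replicate 2.

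**Figure D2:**
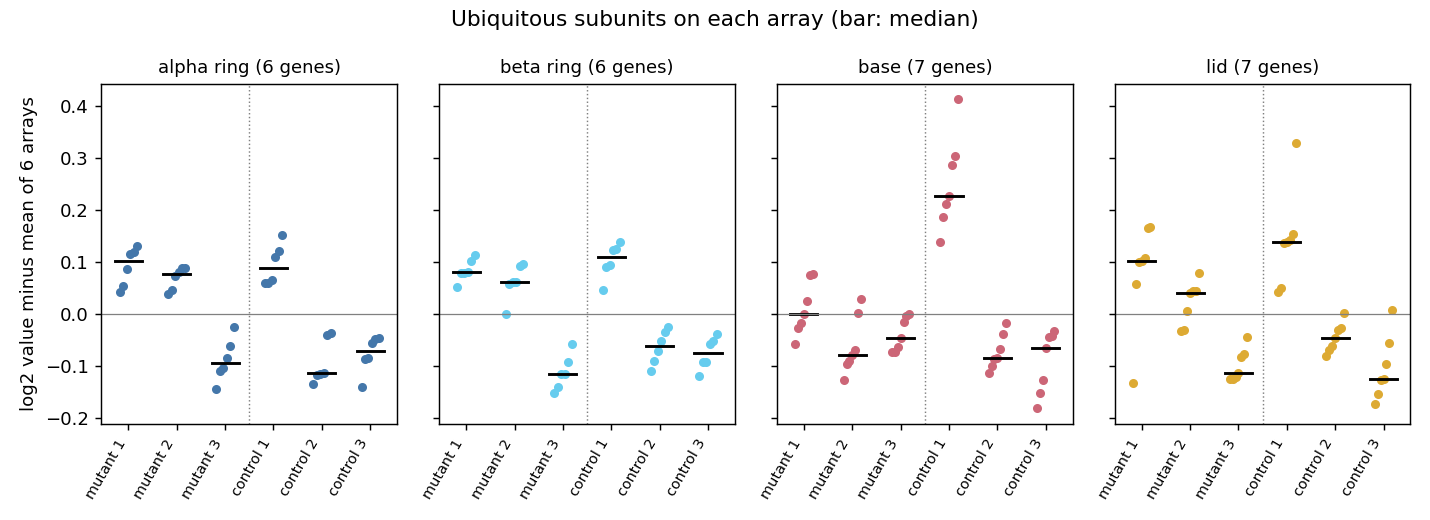
Deviation of each ubiquitous subunit from its own mean over 6 arrays (log2), for the 3 mutant and 3 control arrays, with a panel for each part of the particle and a bar at the median. The alpha and beta rings are high on mutant replicates 1 and 2 and control replicate 1, while the base has its highest median, 0.23, on control replicate 1.

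The median difference of the base changed sign when control replicate 1 was left out. Without it, 6 of 7 base members lay above 0, with a median difference of 0.059, against 2 of 7 and -0.087 with it. Over all ubiquitous subunits the median was 0.088 without that array, with 24 of 26 above 0, and no member passed limma's adjusted p of 0.05. Without mutant replicate 3 the median was 0.068, with 20 of 26 above 0. Leaving out control replicate 3 gave -0.031, with 9 of 26 above 0, and leaving out mutant replicate 1 gave -0.029, with 10 of 26. The matching shares over all tested probesets are not given for these fits. The counts therefore do not show a shift particular to the subunits. Other lists moved on the same arrays. The 23 tested genes that work with the proteasome had median deviations of 0.061, 0.031 and -0.11 on the mutant arrays, and 0.11, -0.033 and -0.056 on the control arrays, with the signs of the core on each. The median deviation of 7 muscle genes was -0.17, 0.032 and 0.42 on the mutant arrays, and -0.44, 0.057 and 0.15 on the control arrays, so these genes were lowest on control replicate 1. For 4 larval neuron genes it was 0.034, 0.011 and -0.21 on the mutant arrays, and 0.20, 0.022 and -0.049 on the control arrays. For the 4 fat body genes it was 0.0034, 0.074 and 0.096 on the mutant arrays, and 0.0006, -0.082 and -0.056 on the control arrays. Their part in the pattern of the subunits was not tested. The excess of 3' over 5' signal of the actin control probesets, a sign of RNA quality, was 0.77, 0.94 and 0.90 in mutants, and 0.72, 0.70 and 0.74 in controls. That of the GAPDH control probesets was 1.46, 1.46 and 1.23 in mutants, against 1.35, 1.41 and 1.36 in controls, so the genotypes were separate for actin and overlapped for GAPDH. The part of RNA quality was not tested either.

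The T and R copies lay at or near the level of probesets for absent genes in both genotypes. On all 6 arrays 12 of 14 copies had values within the range of the Y-linked probesets, 2.45 to 4.53. The exceptions were Rpt3R, at 5.58 over 6 arrays, and Prosalpha4T2, at 4.54, and only these 2 were tested. The top of the Y-linked range was set by Pp1-Y2 alone, which read 4.18 to 4.53. The next brightest Y-linked gene, kl-2, read 3.59 to 3.86. Prosalpha4T1 and Prosbeta2R2 lay above kl-2 on all 6 arrays, so the count of copies within the range depends on Pp1-Y2. Levels of different probesets depend on their probes, so the copies are not ranked here against their namesakes. A value within the range of the Y-linked probesets bounds the transcript from above and does not show that it is absent.

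Among the alpha copies, Prosalpha6T, which in flies serves the testis core, had 3.65, 3.79 and 3.60 in mutants, against 3.78, 3.63 and 3.71 in controls, and the groups overlapped. Prosalpha3T, another testis subunit, had 3.80, 3.62 and 3.86 in mutants, against 3.83, 3.75 and 3.80 in controls. Prosalpha4T1 had 4.45, 4.22 and 4.33 in mutants, against 4.15, 4.20 and 4.12 in controls. All 3 mutant values of Prosalpha4T1 were the higher ones, as for 7.0% of tested probesets. Prosalpha4T1 was below the level filter, and that share covers only probesets above it. Without the level filter its difference of 0.17 did not pass (limma adjusted p = 0.709). Prosalpha4T2 had 4.48, 4.35 and 4.65 in mutants, against 4.72, 4.50 and 4.56 in controls (difference -0.10, limma adjusted p = 0.795). Both genes share the X-linked namesake Prosalpha4.

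The 6 beta copies had group means from 2.96 to 4.24. Prosbeta2R2 had 4.20, 4.15 and 4.36 in mutants, against 4.20, 3.98 and 4.03 in controls, with a difference of 0.17. Prosbeta2R1, which is X-linked, had 4.01, 4.04 and 4.05 in mutants, against 4.11, 3.85 and 4.00 in controls. Groups overlapped in both. Prosbeta4R1 and Prosbeta4R2 lie on 2L with 1 protein-coding gene between them in the RefSeq gene order, and their differences were -0.019 and 0.086. Prosbeta4R1 had 3.08, 3.47 and 3.41 in mutants, against 3.39, 3.47 and 3.15 in controls. Prosbeta4R2 had 3.17, 2.97 and 3.01 in mutants, against 2.95, 3.001 and 2.94 in controls, and these groups overlapped too. Prosbeta5R1 had 3.22, 3.20 and 3.12 in mutants, against 3.39, 3.16 and 3.53 in controls. Prosbeta5R2 had 3.68, 3.58 and 3.94 in mutants, against 3.69, 3.95 and 3.80 in controls. The differences of these 2 copies of Prosbeta5 were -0.18 and -0.081, again with overlap.

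Of the copies of regulatory subunits, Rpn12R and Rpt4R had all 3 mutant values below the 3 control values, as had 9.33% of tested probesets. Both were below the level filter, and that share covers only probesets above it. Rpn12R had 3.56, 3.44 and 3.71 in mutants, against 3.88, 3.82 and 3.78 in controls (difference -0.26, limma adjusted p = 0.546 without the level filter). Its probeset name ends in _s_at, the maker's mark for probes that can match transcripts of several genes. The same mark is on the probesets of Prosbeta5, Prosbeta7, Rpn6 and Rpn13 among the ubiquitous subunits. Of the listed genes with values named here, Ubi-p63E, cnc and Desat1 carry it too. Rpt4R had 3.76, 3.78 and 3.82 in mutants, against 3.96, 3.84 and 4.07 in controls (difference -0.17, limma adjusted p = 0.715 without the level filter). Rpn13R had 3.72, 3.73 and 3.88 in mutants, against 3.88, 3.80 and 3.73 in controls, which overlapped. Over all 14 copies, tested or not, 5 differences lay above 0 and 9 below, with a median of -0.027.

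**Figure D3:**
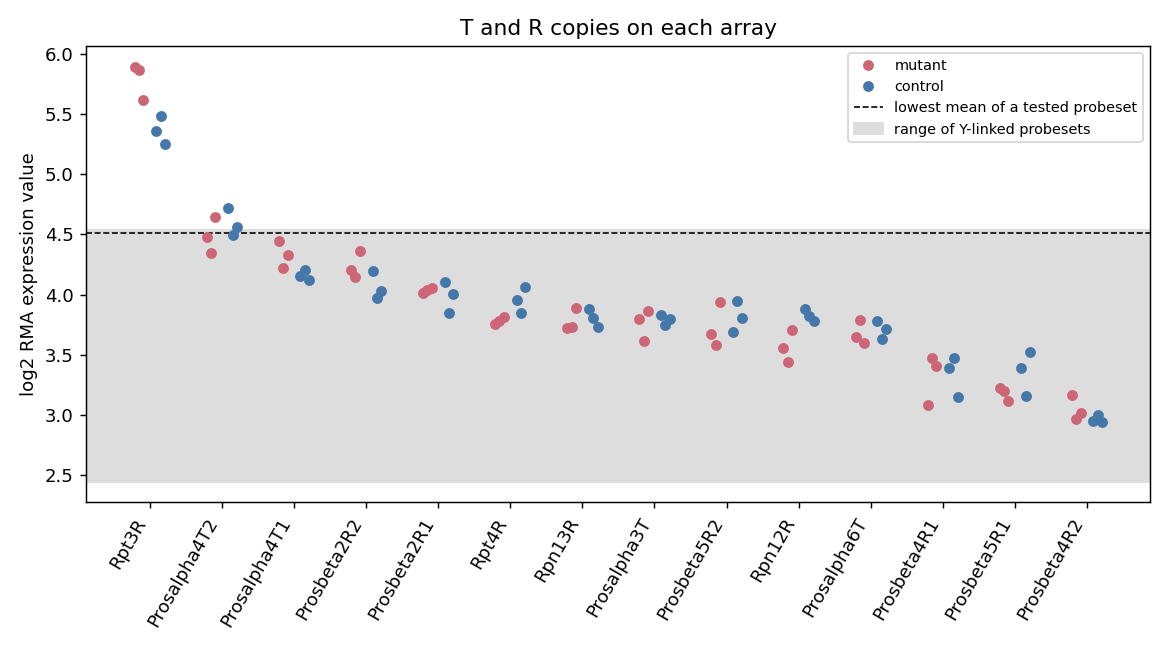
Log2 RMA value of the 14 T and R copies on each of 3 mutant arrays (red, left) and 3 control arrays (blue, right), with the range of Y-linked probesets (2.45 to 4.53) in grey and the lowest mean of a tested probeset (4.51) as a dashed line. Rpt3R alone lies above the grey range on every array. The top of the grey range comes from the gene Pp1-Y2.

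Rpt3R had the smallest p of all members. Its probeset read 5.89, 5.87 and 5.61 in mutants, against 5.35, 5.48 and 5.25 in controls. All mutant values lay above all control values, as for 7.0% of tested probesets. The means were 5.79 ± 0.15 in mutants and 5.36 ± 0.11 in controls (SD, n = 3 each), a difference of 0.43 or 1.34-fold. The 95% interval from limma ran from 0.17 to 0.68 without adjustment for the number of probesets. The difference did not pass (limma adjusted p = 0.276), and 1.98% of tested probesets had a p as small or smaller. An exact two-sided permutation test of the 6 arrays gave p = 0.1, the smallest that 3 against 3 arrays allow. Leaving out any 1 array gave differences from 0.37 to 0.52. With array weights, which limma estimated from these same 6 arrays, the difference was 0.50 and passed (limma adjusted p = 0.0414). That fit called 232 probesets, against 62 in the main fit. Over the alternatives that tested Rpt3R the limma adjusted p ran from 0.0414 to 0.824. The array weights were lowest for control replicate 1, at 0.275, and highest for mutant replicate 2, at 2.92.

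Rpt3R and its namesake Rpt3 gave values on opposite sides of 0, neither of which passed. Rpt3R lies on 3R and Rpt3 on the X chromosome, and their differences were 0.43 and -0.087, a contrast that was not tested. Control replicate 1 was the highest array for Rpt3 and the middle control array for Rpt3R. Without it the differences were 0.42 for Rpt3R and -0.0021 for Rpt3. Copies and namesakes lie on different chromosome arms in 9 of the 14 cases.

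**Figure D4:**
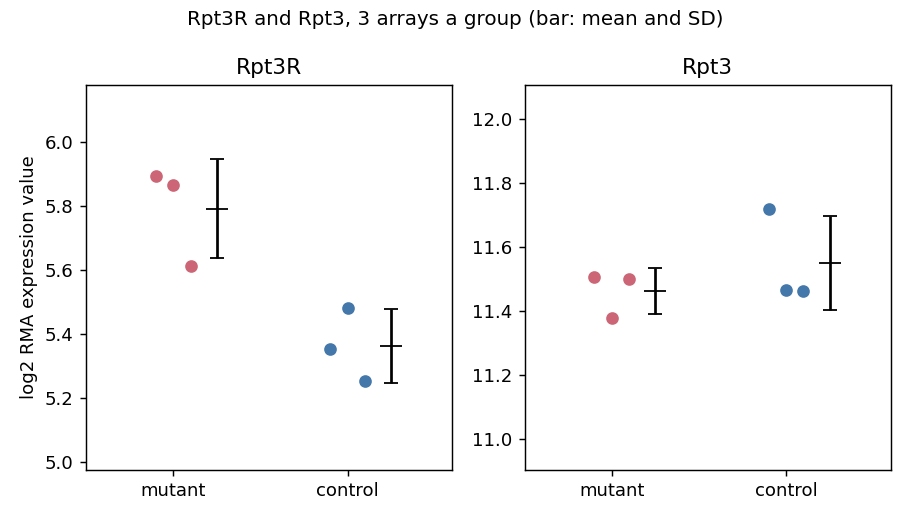
Log2 RMA values of Rpt3R and of Rpt3 on 3 mutant and 3 control arrays, each panel spanning 1.2 log2 units around the gene's own mean, with the group mean and SD as bars. The groups are separate for Rpt3R (means 5.79 in mutants and 5.36 in controls) and overlap for Rpt3 (11.46 in mutants and 11.55 in controls).

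Genes of the male germline, a cell type that female larvae lack, were read beside the copies. Some of these genes may also be used in other cells. Of 22 listed genes, 19 were below the level filter, among them the testis tubulin gene betaTub85D and the sperm chromatin genes ProtA and ProtB. Of the 3 tested, 0 were called and 1, Mst87F, had an unadjusted limma p under 0.05, against 9.0% of all tested probesets. The means over 6 arrays ran from 2.67 to 7.44. The highest was Mst87F, a sperm tail gene, with 6.98, 7.20 and 7.32 in mutants, against 7.87, 7.59 and 7.69 in controls. All its mutant values were the lower ones, as for 9.33% of tested probesets, and the difference of -0.55 did not pass (limma adjusted p = 0.176). With array weights, in the fit that called 232 probesets, it passed (limma adjusted p = 0.0424). The phosphatase gene twe, below the level filter, had 4.19, 4.40 and 4.08 in mutants, against 3.96, 4.00 and 3.97 in controls (difference 0.25, limma adjusted p = 0.625 without the level filter). Its mutant values were all the higher ones, as for 7.0% of tested probesets, a share that covers only probesets above the level filter.

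Genes that work with the proteasome were not called either. Of 23 listed genes with a tested probeset, which covered ubiquitin genes, assembly factors, activators, shuttle proteins and regulators, 0 passed limma's adjusted p of 0.05, 14 had a difference above 0 and 9 below, and the median was 0.012. Of the 23, 1 had an unadjusted limma p under 0.05, against 9.0% of all tested probesets. This was the polyubiquitin gene Ubi-p63E. It read 12.28, 12.19 and 12.16 in mutants, against 12.48, 12.49 and 12.34 in controls (difference -0.23, limma adjusted p = 0.459). Like that of Rpn12R, its probeset name ends in _s_at, so its probes can match transcripts of several genes. Next came ntc, an F-box gene needed for sperm formation whose product binds the proteasome inhibitor PI31, with 6.59, 6.47 and 6.45 in mutants, against 6.67, 6.75 and 6.63 in controls (difference -0.18, limma adjusted p = 0.556). For both genes the mutant values lay below all control values, which is 2 of 23, against 9.33% of tested probesets.

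The others stayed further from the threshold. Pomp, the assembly chaperone of the core, had 11.23, 11.32 and 11.21 in mutants, against 11.24, 10.87 and 11.08 in controls (difference 0.20). The deubiquitinase gene Uch-L5 had a difference of -0.13 and p47, a cofactor gene of the unfoldase TER94, one of -0.10. Sem1, the small lid subunit that the naming rule leaves out, had 12.08, 12.02 and 11.78 in mutants, against 12.08, 11.89 and 11.90 in controls. Mutant replicate 3 was its lowest array, as for 8 of the 26 ubiquitous subunits and 28.1% of all tested probesets. The gene cnc, whose Nrf1 relatives in mammals raise proteasome genes, had 10.34, 10.43 and 10.25 in mutants, against 10.58, 10.35 and 10.39 in controls (difference -0.099, limma adjusted p = 0.774).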

How the data were processed

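The deposited table holds a log2 value for each probeset on each array. The authors made these values by RMA, which subtracts background, equalizes the arrays and merges the probes of a set, per the labels' design text. After that step a shift of most transcripts in one direction cannot be detected. The table held 18952 probesets, 183 of them controls. Probesets were named through the platform annotation (1 symbol for 13647, several for 402, none listed for 4720), and chromosome arms and gene order came from the RefSeq gene table of Release 6 plus ISO1 MT, matched by gene number for all 40 members.

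Control probesets and the lowest 40% by mean were left out. Mutant minus control was tested on 6 arrays with limma 3.58.1 in R 4.3.3 (two-sided, Benjamini-Hochberg over 11262 probesets, call at an adjusted p under 0.05), and the fit was tested on simulated data. Adjusted p-values come from that fit unless another is named. Members and lists were chosen with earlier results of these data known. Named were all members and, of the pathway list, the genes called or otherwise the 5 with the smallest p. Sem1, cnc, Mst87F, twe and the other germline genes were named after their values were seen. The division into rings, base and lid was made afterwards too, as were the values without control replicate 1 by part and the permutation test of Rpt3R. With 3 arrays a group, precision is limited by their number. The 3 preparations per genotype were independent, per the labels. Figures were drawn with matplotlib 3.10.9.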

Additional observations from a re-analysis of the deposited data

How the results depend on the processing

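The number of called probesets over all tested was 62, and it was 27 with the lowest 60% left out, 232 with array weights and 28 with the replicate block. Leaving out 1 array gave 12 to 84, with 17 without mutant replicate 1, 12 without mutant replicate 2, 27 without mutant replicate 3, 31 without control replicate 2 and 20 without control replicate 3. With array weights 1 proteasome member (Rpt3R) and 1 male germline gene (Mst87F) were called, against 0 of each otherwise. In the other alternatives, which were no filter, the stricter filter, quantile normalization, median centring, eBayes with trend and robust, the replicate block and each array left out, 0 members and 0 genes of the male germline list were called, and 0 pathway genes in any fit. The median of the ubiquitous subunits ran from -0.031 to 0.088 with 1 array left out and that of the copies from -0.070 to 0.0069. The median of the Y-linked probesets was -0.0022 and ran from -0.038 to 0.037 with 1 array left out (0.037 without control replicate 2). Since every member has 1 probeset, the mean over probesets changed nothing. Under the replicate block Rpt3R had an adjusted p of 0.256. Same-numbered arrays correlated at 0.053, -0.19 and 0.32 in their deviations from the group means. Different-numbered arrays correlated at -0.29 to 0.21. So few correlations cannot decide whether the numbers pair the samples. Over 45 single genes and 13 alternatives the sign differed from the reported one in 55 of 585 values. The 585 include no filter, the stricter filter, eBayes with trend and robust and the replicate block. These leave the difference itself unchanged, so its sign could not differ there. The stricter filter left Rpt3R out of the test.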

Other observations

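The absolute log2 difference between the genotypes was under 0.2 for all 26 ubiquitous subunits, against 83.3% of the 911 tested probesets as bright. The subunits share arrays and much of their movement between arrays, so this share describes the 6 arrays and carries no test. Germline genes used in females were read at low or moderate levels: grk had a mean of 6.90 over 6 arrays and bam one of 6.64, while vas, osk, otu and orb lay between 2.69 and 3.28. Differences were 0.24 for bam (limma adjusted p = 0.393) and 0.17 for grk (limma adjusted p = 0.63), and neither passed. For bam all mutant values were the higher ones, as for 7.0% of tested probesets. For vas, below the level filter, all were the lower ones. Over the 6 genes, 4 differences lay above 0 and 2 below.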
